A study of Ovis aries with 54 samples.

Results

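The cell cycle and proliferation genes are 34 genes of dividing cells, taken by symbol from a table of counts for 30184 genes of sheep (Ovis aries) lung tissue, and all 34 symbols were in the table. By role they comprised 10 genes of DNA replication, 5 genes for cyclins and the cyclin-dependent kinase CDK1, 17 genes of mitosis and 2 transcription factors, E2F1 and FOXM1. A cell that enters the cycle copies its DNA with the MCM helicase, the clamp PCNA and the enzymes that make deoxynucleotides, under transcription driven by E2F factors. Its mitotic genes, many of them FOXM1 targets, are made later, and B-type cyclins with CDK1 then start mitosis. In adult lung most cells are at rest, and dividing cells are found among lymphocytes, macrophages, alveolar type 2 cells, airway progenitors, endothelium and fibroblasts.

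The study modelled chronic obstructive pulmonary disease (COPD) in sheep. RNA was sequenced from 18 lung pieces. Of these, 7 had been exposed to an elastase of porcine origin together with lipopolysaccharide (PE/LPS), 7 to saline in other lobes of the same 7 sheep, and 4, labelled control, came from 4 other sheep. The sources used here do not give breed, sex, age, dose, the time between exposure and sampling, or any procedure on the control sheep. Titles carry a code, LC or RA, which the sources used here do not explain. All PE/LPS pieces were LC and all saline pieces RA, so exposure and code cannot be told apart within the exposed sheep. The controls held 2 LC and 2 RA pieces.

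Each piece was sequenced as 3 libraries, whose counts were summed, so that 1 piece is 1 replicate. Piece totals ran from 9653262 to 41946705 counts. Library totals had a median of 9240328 counts, and for sheep 11 the PE/LPS library numbered 1 held 115109. The titles of 4 pieces, PE/LPS of sheep 2, 8 and 11 and control of sheep 9, carry further characters. The saline piece of sheep 14 and the control piece of sheep 9 stood at opposite ends for several members. Some, not all, results that rest on them are also given without them. Every list of lung cell type markers, alveolar type 2 genes included, had members with counts, and no marker in the table was at 0 in all pieces. In bulk tissue, fewer dividing cells and less RNA per dividing cell cannot be told apart. Levels are CPM, counts scaled to a common library size, by the TMM method. They are compared between pieces and never between genes, since the counts are not per length.

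Counts for 30 of the 34 members were found in all 18 pieces. The exceptions were E2F1, FOXM1, PLK1 and KIF20A. PLK1, the polo kinase of mitotic entry, had 0 counts in all 7 PE/LPS pieces, where a count of 0 allows up to 0.384 CPM in the shallowest piece and 0.0685 CPM in the deepest. In the saline pieces of sheep 1, 2, 8, 11, 14, 15 and 16 it had 5, 0, 3, 0, 2, 6 and 11 counts, and among the control pieces the piece of sheep 9 alone had any, with 6. These limits cover counting error only, and PLK1 was too low to be tested. KIF20A, a kinesin of the dividing cell's midzone, had at most 28 counts in a piece. FOXM1, the transcription factor of the mitotic genes, had at most 27 counts.

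Within sheep, PE/LPS and saline pieces differed in no member past the threshold, an adjusted p of 0.05 over all genes tested (edgeR quasi-likelihood test with the sheep as a block, Benjamini-Hochberg adjustment). Of the 34 members 31 passed the filter on low counts, and 0 were called, where 0% of all 16944 genes tested were called. At an unadjusted p under 0.05, 3 members were lower in PE/LPS, against 3.25% of all genes, and 0 were higher, against 2.51% of all genes. The 3 were MKI67, CENPF and CENPE. With limma voom 0 members were called (0% of all genes) and 3 were lower at an unadjusted p under 0.05, against 3.12% of all genes. With DESeq2 0 members were called, where 0.277% of all genes were, and 4 were lower at an unadjusted p under 0.05, against 4.97% of all genes. The 3 members became 1 without sheep 2, and 0 without the 3 sheep whose PE/LPS title carries further characters. The shares of all genes were not taken in these 2 fits.

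The roles differed in where their members lay. Of the 15 mitosis members tested 12 had a negative and 3 a positive log2 fold change (PE/LPS minus saline), with a median of -0.47. Of the 10 replication members 5 were positive and 5 negative, with a median of 0.0018. Of the 5 genes made up of 4 cyclins and CDK1, 4 were positive, with a median of 0.29. Over all 16944 genes tested the median was -0.030, with 8001 positive and 8943 negative. These counts describe the members, and the difference between roles was not tested.

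MKI67, which encodes the Ki-67 antigen on the surface of mitotic chromosomes and is widely used to mark dividing cells, measured 5.25 CPM at the lowest, 12.4 at the median and 26.8 at the highest PE/LPS piece. In saline pieces the lowest, median and highest values were 12.6, 17.6 and 60.0 CPM. The control pieces of sheep 7, 9, 10 and 18 stood at 10.1, 3.75, 13.2 and 23.4 CPM. The groups overlapped, and PE/LPS was below saline in 6 of 7 sheep, with sheep 16 as the exception. The mean of PE/LPS pieces was 13.8 ± 6.85 CPM and that of saline pieces 24.1 ± 16.5 CPM (SD, n = 7 each), and the log2 fold change was -0.75 (SE 0.25, edgeR unadjusted p = 0.00959, adjusted p = 0.771).

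CENPF and CENPE, a matrix protein and a motor of the kinetochore, where chromosomes attach to the spindle, had the next smallest p-values. CENPF had a lowest, median and highest value of 15.4, 24.8 and 51.6 CPM in PE/LPS and of 24.5, 45.8 and 143.7 CPM in saline pieces. Its control pieces (sheep 7, 9, 10 and 18) measured 55.6, 6.53, 30.4 and 51.9 CPM, so that the lowest of all 18 values was a control and the highest a saline piece. The log2 fold change of CENPF was -0.81 (SE 0.31, edgeR unadjusted p = 0.0226, adjusted p = 0.771), and -0.58 without sheep 14 or -1.02 without sheep 16. CENPE had a lowest, median and highest value of 6.78, 16.0 and 21.5 CPM in PE/LPS and of 14.0, 22.3 and 73.7 CPM in saline pieces. Its control pieces, in the same order of sheep, measured 32.1, 5.45, 13.8 and 23.3 CPM. PE/LPS was below saline in 6 of 7 sheep for CENPE (log2 fold change -0.77, SE 0.33, edgeR unadjusted p = 0.0389, adjusted p = 0.771) and in 5 of 7 for CENPF. The value of CENPE was -0.52 without sheep 14 and -1.0 without sheep 16. For both genes all 3 groups overlapped.

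TOP2A, the topoisomerase that untangles sister chromosomes, had a lowest, median and highest value of 54.5, 94.2 and 109.0 CPM in PE/LPS and of 78.3, 118.2 and 189.4 CPM in saline pieces. Its control pieces (sheep 7, 9, 10 and 18) measured 145.3, 72.1, 77.3 and 104.2 CPM. PE/LPS was below saline in 6 of 7 sheep, and sheep 8 was the exception. The log2 fold change was -0.42 (SE 0.22, 95% interval -0.89 to 0.05).

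**Figure D1:**
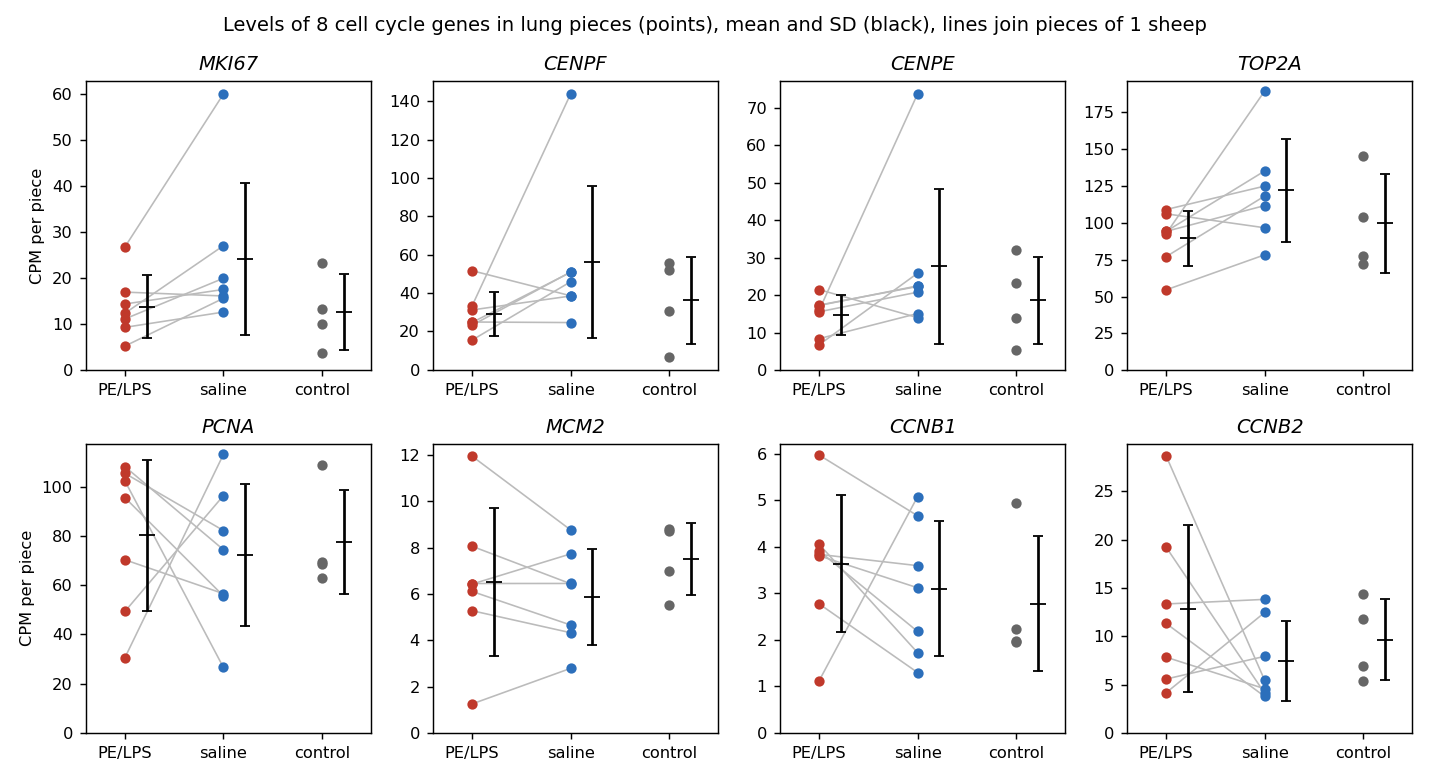
CPM per piece (y axis) of MKI67, CENPF, CENPE, TOP2A, PCNA, MCM2, CCNB1 and CCNB2 in PE/LPS, saline and control pieces (x axis); points are pieces, lines join the 2 pieces of 1 sheep, and black bars give the mean and SD. Saline pieces reach 60.0 CPM for MKI67 and 143.7 CPM for CENPF, both in sheep 14, while the groups overlap for all 8 genes.

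The other mitosis members had smaller or more scattered differences. TPX2, which activates Aurora kinase A on the spindle, measured 23.3 to 29.2 CPM in PE/LPS pieces, against 21.2 to 48.5 CPM in saline and 23.7 to 34.7 CPM in control pieces (log2 fold change -0.41, 95% interval -0.89 to 0.06). KIF11, the kinesin that pushes spindle poles apart, likewise spread less in PE/LPS, with 6.86 to 10.4 CPM against 5.46 to 24.8 CPM in saline pieces (log2 fold change -0.46, 95% interval -1.08 to 0.16). The difference in spread was not tested. KIF23, a kinesin of cytokinesis, was below saline in 6 of 7 sheep, at a log2 fold change of -0.28 (95% interval -0.83 to 0.28). NUSAP1, a spindle microtubule protein, stood at -0.47 (95% interval -1.05 to 0.12).

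CDC20, an activator of the anaphase-promoting complex, measured 4.99 to 13.2 CPM in PE/LPS, against 8.41 to 21 CPM in saline pieces, and its log2 fold change of -0.61 (SE 0.30) had an unadjusted p of 0.0626 in edgeR. UBE2C, the ubiquitin-conjugating enzyme of that complex, stood at -0.71 with a wide interval (95%, -1.82 to 0.39). The Aurora kinases of the centrosome and of the centromere, AURKA and AURKB, stood at -0.54 (SE 0.46) and -0.53 (SE 0.42). BUB1 and BUB1B, kinases of the spindle checkpoint, lay at 0.0012 (SE 0.30) and 0.18 (SE 0.35). BIRC5, or survivin, of the chromosomal passenger complex lay at 0.025 (SE 0.28).

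Replication members lay on both sides of 0, and their intervals included 0 in all 10 cases. PCNA, the clamp that holds DNA polymerase on its template, had a lowest, median and highest value of 30.5, 95.6 and 108.2 CPM in PE/LPS and of 26.6, 74.4 and 113.1 CPM in saline pieces. Its control pieces (sheep 7, 9, 10 and 18) measured 69.6, 109.0, 63.0 and 68.5 CPM. The ranges of PE/LPS and saline pieces were nearly the same, yet single sheep differed widely: PE/LPS was higher than saline by 1.94 on the log2 scale in sheep 14, and the difference was -1.89 in sheep 16. The log2 fold change of PCNA was 0.19 (SE 0.39, 95% interval -0.66 to 1.03, edgeR adjusted p = 0.92), and -0.098 without sheep 14.

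MCM2, a subunit of the replicative helicase, had a lowest, median and highest value of 1.25, 6.43 and 12 CPM in PE/LPS and of 2.79, 6.44 and 8.77 CPM in saline pieces. Control pieces of sheep 7, 9, 10 and 18 measured 6.99, 8.80, 8.72 and 5.52 CPM. The medians were almost equal and the PE/LPS pieces covered the wider range, for a log2 fold change of 0.025 (95% interval -0.62 to 0.67). The other helicase subunits MCM3, MCM4, MCM5, MCM6 and MCM7 ranged from -0.33 for MCM7 to 0.14 for MCM3. Within sheep these subunits often differed in sign: in sheep 2 MCM4 was at 0.44 and MCM7 at -1.81.

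RRM2, the regulated subunit of ribonucleotide reductase, which makes deoxynucleotides, had a lowest, median and highest value of 1.19, 3.19 and 5.57 CPM in PE/LPS and of 1.38, 1.92 and 4.20 CPM in saline pieces. Its control pieces (sheep 7, 9, 10 and 18) measured 2.22, 1.76, 2.53 and 3.43 CPM. PE/LPS was higher in 4 of 7 sheep (log2 fold change 0.44, SE 0.43, 95% interval -0.49 to 1.38, edgeR adjusted p = 0.831). RRM1, the other subunit, stood at -0.14 (SE 0.21). TYMS, thymidylate synthase, varied most between sheep among the replication members, from -3.20 in sheep 16 to 3.42 in sheep 11 on the log2 scale, from at most 5.83 CPM in any piece.

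The median difference of the 4 cyclins and CDK1 was above 0 in 6 of the 7 sheep. CCNB1, a B-type cyclin that partners CDK1 at mitotic entry, had a lowest, median and highest value of 1.12, 3.84 and 5.97 CPM in PE/LPS and of 1.3, 3.12 and 5.08 CPM in saline pieces. Its control pieces (sheep 7, 9, 10 and 18) measured 1.99, 4.94, 2.24 and 1.95 CPM. It was the member higher in PE/LPS in 6 of 7 sheep, and in sheep 16 it was at -2.11 on the log2 scale, so that the log2 fold change was 0.31 (SE 0.45, 95% interval -0.66 to 1.28, edgeR adjusted p = 0.881).

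CCNB2, the other B-type cyclin, had the smallest p among members with a positive value. Its lowest, median and highest levels were 4.16, 11.3 and 28.7 CPM in PE/LPS, against 3.77, 5.44 and 13.8 CPM in saline pieces, and control pieces of sheep 7, 9, 10 and 18 measured 6.89, 14.4, 11.8 and 5.40 CPM. The 2 highest PE/LPS pieces, of sheep 2 and 11, exceeded all saline pieces, and the ranges overlapped (log2 fold change 0.71, SE 0.48, edgeR unadjusted p = 0.162, adjusted p = 0.775). CDK1, the kinase that drives mitotic entry, had a lowest, median and highest value of 0.53, 2.25 and 7.67 CPM in PE/LPS and of 0.71, 2.59 and 3.95 CPM in saline pieces. Its control pieces, in the same order of sheep, measured 1.39, 3.75, 2.82 and 1.92 CPM. The highest CDK1 level was that of the PE/LPS piece of sheep 11, and the log2 fold change of 0.29 (SE 0.61) became -0.15 without that sheep. CCNA2, the cyclin of S phase, stood at 0.10 (SE 0.32) and CCNE2, the cyclin of S phase entry, at -0.055 (SE 0.31).

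E2F1, the transcription factor that switches on replication genes, was low, with 0 to 1.26 CPM in PE/LPS, 0.57 to 3.64 CPM in saline and 0.096 to 1.37 CPM in control pieces. Its log2 fold change of -1.38 had a wide interval (95%, -3.18 to 0.42), and PE/LPS was below saline in 5 of 7 sheep.

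Signs over the 7 sheep were counted for the 31 members tested. MKI67, TOP2A, KIF23 and CENPE were lower in PE/LPS in at least 6 sheep, as were 8.63% of all genes. CCNB1 alone was higher in at least 6 sheep, as were 8.46% of all genes. No member had the same sign in 7 of 7 sheep, against 0.891% of all genes for lower and 0.785% for higher.

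The median difference of the 15 mitosis members was -0.57, -0.91, -0.67, -0.0094, -0.29, 0.017 and -0.91 on the log2 scale in sheep 1, 2, 8, 11, 14, 15 and 16. Sheep 1, 2, 8 and 16 thus stood clearly below 0, sheep 14 less so, and sheep 11 and 15 close to 0. The median of the 10 replication members in the same order was 0.17, 0.10, -0.83, 0.21, 0.68, 0.31 and -0.19. That of the 4 cyclins and CDK1 was 0.33, 0.092, 0.27, 0.40, 0.87, 0.52 and -1.57. In 5 sheep (1, 2, 11, 14 and 15) the replication and cyclin medians were positive, in sheep 8 the replication and mitosis medians were negative, and in sheep 16 all 3 were. All-gene medians per sheep ran from -0.12 to 0.084.

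**Figure D2:**
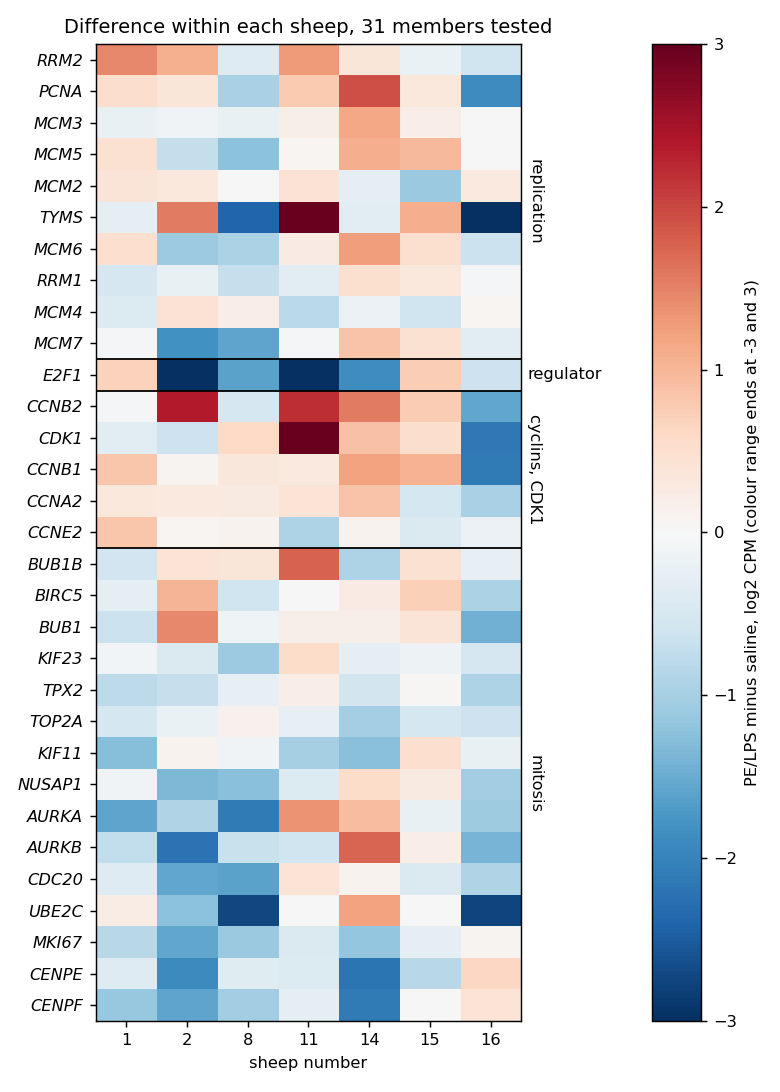
Difference in log2 CPM between the PE/LPS and the saline piece of each sheep (columns, by sheep number) for the 31 members tested (rows, by role); red is higher and blue lower in PE/LPS, with colours ending at -3 and 3. MKI67, CENPE and CENPF are blue in most sheep, the cyclin and CDK1 rows are red in most sheep other than 16, and the replication rows are mixed.

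Among the 30 members with counts in every piece, the highest and lowest pieces were counted and set beside the same share of all 15322 genes with counts in every piece. The saline piece of sheep 14 was the highest of all 18 in 6 members (MKI67, TOP2A, BUB1B, KIF11, CENPE and CENPF) and the lowest in 5 (PCNA, MCM3, MCM6, CCNB2 and BUB1). It was the highest in 15.2% and the lowest in 17.5% of all genes, near its shares of these 30 members, and nothing particular to the members is read from it. The saline piece of sheep 16 was the highest in 6 other members (TYMS, PCNA, AURKB, TPX2, NUSAP1 and UBE2C) and the lowest in 0, against 4.19% and 5.60% of all genes. The control piece of sheep 9 was the lowest in MKI67, CENPE, CENPF and NUSAP1 and the highest in CCNE2, where it was the lowest in 9.85% and the highest in 9.22% of all genes. The PE/LPS piece of sheep 15 was the lowest in 5 members (MCM2, MCM4, CCNA2, CCNE2 and TOP2A), against 5.80% of all genes. Those of sheep 2 and 8 were the lowest in 4 members each, against 14.9% and 10.3% of all genes.

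Summed levels of the roles are given next, and members with more counts weigh more in them. In the saline piece of sheep 14 the 17 mitosis members summed to 659.3 CPM, the highest of all pieces. The 10 replication members summed to 176.7 CPM, the lowest. The mitosis members did not move together there. TOP2A (189.4 CPM), CENPF (143.7 CPM), CENPE (73.7 CPM) and MKI67 (60.0 CPM) were at their highest. BUB1 (20.2 CPM) was at its lowest of all pieces and AURKB (3.26 CPM) at its lowest of saline pieces. As above, nothing particular to the members is read from this piece. In the PE/LPS piece of the same sheep the sums were 369.5 CPM for mitosis and 344.5 CPM for replication. In the control piece of sheep 9 the mitosis sum was 226.9 CPM, the lowest of all pieces, with 268.5 CPM for replication. The sum of 58 other mitosis genes did not stand out in the saline piece of sheep 14, at 1293 CPM in a saline range of 1141 to 1827 CPM.

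**Figure D3:**
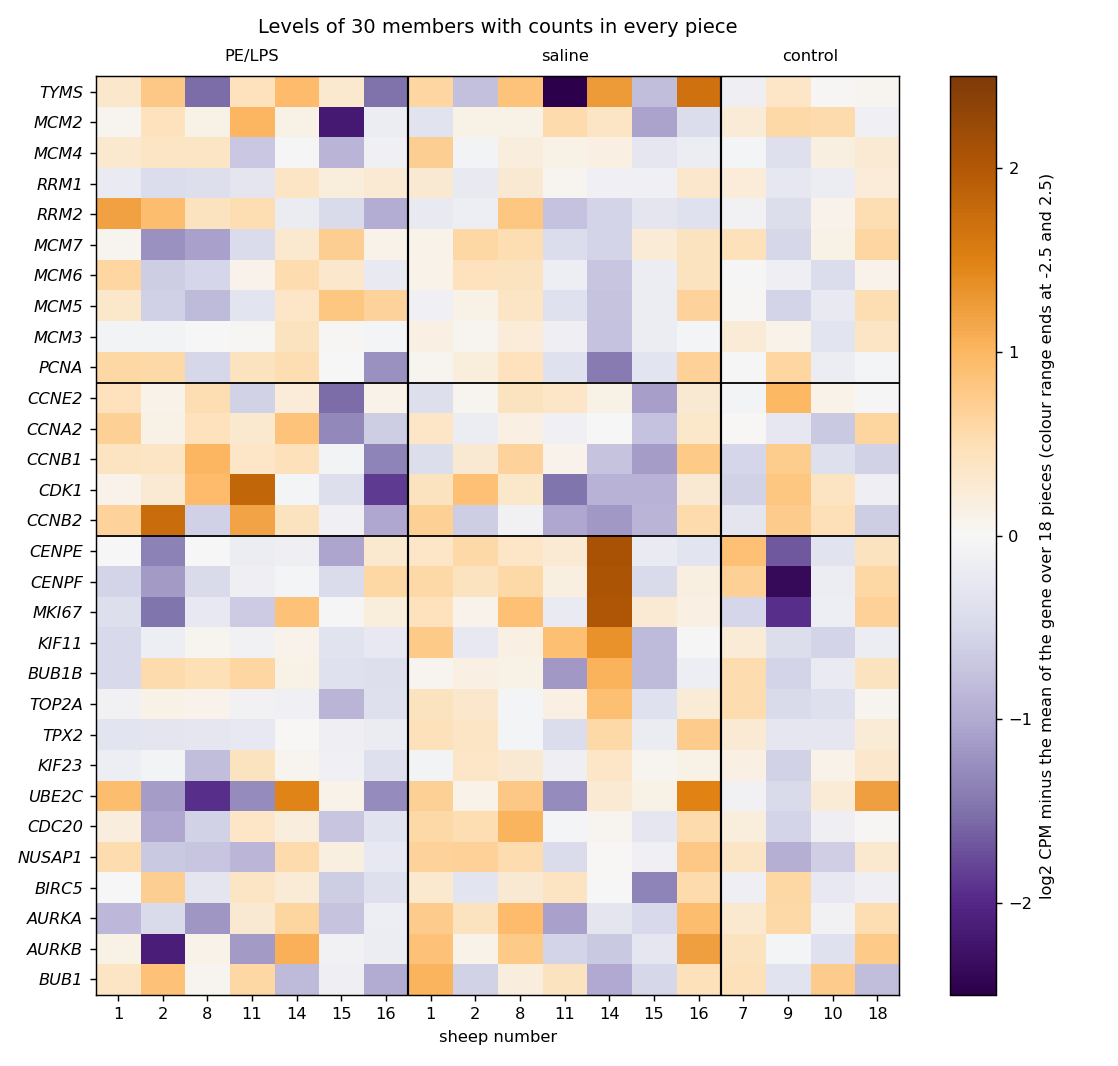
log2 CPM minus the gene's mean over 18 pieces (colour, ending at -2.5 and 2.5) for the 30 members with counts in every piece (rows, by role) in each piece (columns, by group and sheep number). The saline column of sheep 14 is high for CENPE, CENPF and MKI67 and low for PCNA, and the control column of sheep 9 is low for CENPE, CENPF and MKI67.

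In the saline piece of sheep 14 and the control piece of sheep 9 the 3 libraries gave the same picture for MKI67, CENPF and PCNA. Members with fewer counts varied more between libraries. In the saline piece of sheep 14 CCNB2 measured 1.99, 2.78 and 10.8 CPM and RRM2 3.98, 0 and 1.46 CPM. On library totals, MKI67 in the saline piece of sheep 14 measured 80.4, 76.4 and 60.3 CPM, and CENPF 171.4, 157.0 and 208.1 CPM. PCNA in the same libraries measured 33.8, 31.5 and 32.2 CPM. In the control piece of sheep 9 MKI67 measured 1.89, 3.83 and 3.02 CPM and CENPF 4.68, 7.01 and 2.86 CPM. The high MKI67 value of 43.4 CPM in the shallow PE/LPS library of sheep 11 rested on 5 counts.

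**Figure D4:**
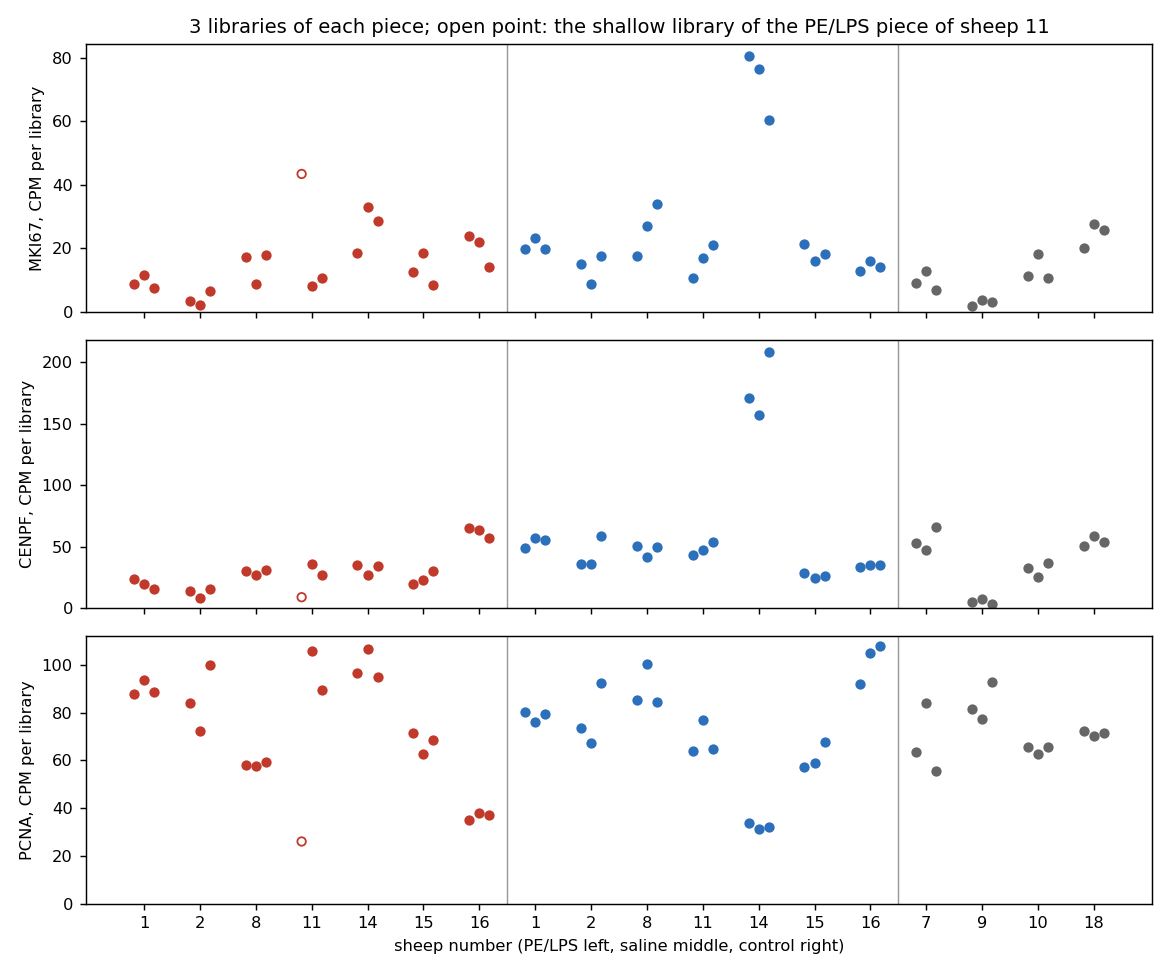
CPM per library on library totals (y axis) of MKI67, CENPF and PCNA in the 3 libraries of each piece (x axis, sheep number; PE/LPS red, saline blue, control grey); the open point is the library of 115109 counts. All 3 libraries of the saline piece of sheep 14 are above 60 CPM for MKI67 and at 157.0 CPM or more for CENPF.

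Sums of other genes lay at an end of their group's range in the saline piece of sheep 14 and the control piece of sheep 9. Of the 15322 genes with counts in every piece, the former was the highest in 15.2% and the lowest in 17.5%. The latter was the highest in 9.22% and the lowest in 9.85%. Nothing particular to the lists below is therefore read from these sums. The saline piece of sheep 14 also had the highest sum of 20 genes of DNA damage and recombination (323.4 CPM). The saline piece of sheep 14 had the highest summed level of the 10 fibroblast and matrix markers (6616 CPM, in a PE/LPS range of 2180 to 3235, a saline range from 2460 and a control range of 2538 to 3539) and of 9 neutrophil markers (326.6 CPM, in a PE/LPS range of 77.5 to 295.5, a saline range from 40.2 and a control range of 92.0 to 207.1). It had the lowest level of 11 macrophage markers (1510 CPM, in a PE/LPS range of 3634 to 10410, a saline range up to 7783 and a control range of 3768 to 9913) and of 10 endothelial markers (778.6 CPM, in a PE/LPS range of 1260 to 1740, a saline range up to 1585 and a control range of 1169 to 1621). Among controls the piece of sheep 9 was highest for macrophage (9913 CPM), T cell (621.0 CPM) and B and plasma cell markers (2067 CPM). It was also highest there for germinal centre (147.1 CPM), neutrophil (207.1 CPM) and basal cell markers (1161 CPM). It was the lowest control for 12 ciliated cell markers (201.9 CPM, in a control range up to 656.6 CPM). The same held for fibroblast and matrix (2538 CPM) and multiciliated precursor markers (50.6 CPM). No marker of these lists was at 0 in all pieces, and the part of these cells in the levels of MKI67, CENPE and CENPF was not tested.

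Without sheep 14 and 16 together, a choice made after seeing the data, the mitosis median of PE/LPS minus saline was -0.54 and 3 members were at an unadjusted p under 0.05 in edgeR, with 0 called. The share of all genes was not taken in this fit, so the count of 3 has no background beside it. MKI67 was then at -0.82, CENPF at -0.78 and CENPE at -0.74. Leaving out these sheep singly moved CENPF and CENPE in opposite directions, as given above.

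PE/LPS pieces were next set against the control sheep. Of 32 members tested 0 were called (edgeR, adjusted p under 0.05; 0% of all 18340 genes). At an unadjusted p under 0.05, 0 members were higher, against 0.703% of all genes, and 0 lower, against 0.573%. DESeq2 and limma voom also called 0 members (0% of all genes in each) and had 0 at an unadjusted p under 0.05. Log2 fold changes were positive for 16 and negative for 16 members, with a median of -0.011. The smallest p belonged to AURKA, which averaged 3.99 ± 1.89 CPM in the 7 PE/LPS pieces and 6.0 ± 1.2 CPM in the 4 control pieces (SD), a log2 fold change of -0.57 (SE 0.39, edgeR unadjusted p = 0.158, adjusted p = 1). TPX2 was at -0.19 (SE 0.21) and MCM7 at -0.30 (SE 0.35). On the positive side CCNB2 was at 0.42 (SE 0.49), CCNB1 at 0.40 (SE 0.48) and MCM6 at 0.22 (SE 0.27). With 1 piece left out at a time CCNB2 ran from 0.085 (without the PE/LPS piece of sheep 2) to 0.69, and CCNB1 from 0.23 to 0.835 (without the control piece of sheep 9).

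MKI67 averaged 12.6 ± 8.2 CPM in the 4 control pieces against 13.8 ± 6.85 CPM in the 7 PE/LPS pieces (SD), a log2 fold change of 0.14 (95% interval -0.81 to 1.10), and -0.17 without the control piece of sheep 9. TOP2A was at -0.13 (95% interval -0.69 to 0.43), PCNA at 0.057 (-0.65 to 0.77), MCM2 at -0.19 (-1.12 to 0.73), RRM2 at 0.33 (-0.70 to 1.35) and CDK1 at 0.28 (-1.01 to 1.57). Differences of up to about 1 on the log2 scale therefore lay within the intervals, in at least 1 direction, of 4 of these members, MKI67, MCM2, RRM2 and CDK1.

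In saline pieces against the control sheep 0 of 32 members tested were called (edgeR, 0% of all 18289 genes). At an unadjusted p under 0.05, 0 were higher, against 1.66% of all genes, and 0 lower, against 3.25%. Limma voom called 0 members (0% of all genes) with 0 at an unadjusted p under 0.05, and DESeq2 called 0 (0.0328% of all genes), with 1 higher at an unadjusted p under 0.05, against 2.25% of all genes. In edgeR the unadjusted count became 1 without the saline piece of sheep 11 or that of sheep 15, and 2 without the control piece of sheep 18. The shares of all genes were not taken in these fits. Of 15 mitosis members tested 12 were positive, with a median of 0.25, and the median of the 10 replication members was -0.011. The mitosis median was 0.15 without the saline piece of sheep 14 and 0.34 without the control piece of sheep 7. This comparison shares its saline pieces with the within-sheep one, and the PE/LPS comparison above shares its control pieces.

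MKI67 averaged 24.1 ± 16.5 CPM in saline and 12.6 ± 8.2 CPM in control pieces, the smallest p of the members (log2 fold change 0.93, SE 0.47, edgeR unadjusted p = 0.063, adjusted p = 0.939). It was at 0.52 without the saline piece of sheep 14 and at 1.41 without the control piece of sheep 18. KIF11 was at 0.65 (SE 0.38) and CDC20 at 0.48 (SE 0.28), while CENPF was at 0.64 (SE 0.51). KIF11 was at 0.43 without the saline piece of sheep 14 and at 0.83 without the control piece of sheep 7. On the negative side MCM2 was at -0.36 (SE 0.33), CCNB2 at -0.39 (SE 0.41) and MCM3 at -0.20 (SE 0.23). TOP2A stood at 0.29 (SE 0.27), PCNA at -0.12 (SE 0.31), RRM2 at -0.21 (SE 0.43), CCNB1 at 0.14 (SE 0.47) and CDK1 at -0.23 (SE 0.52).

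**Figure D5:**
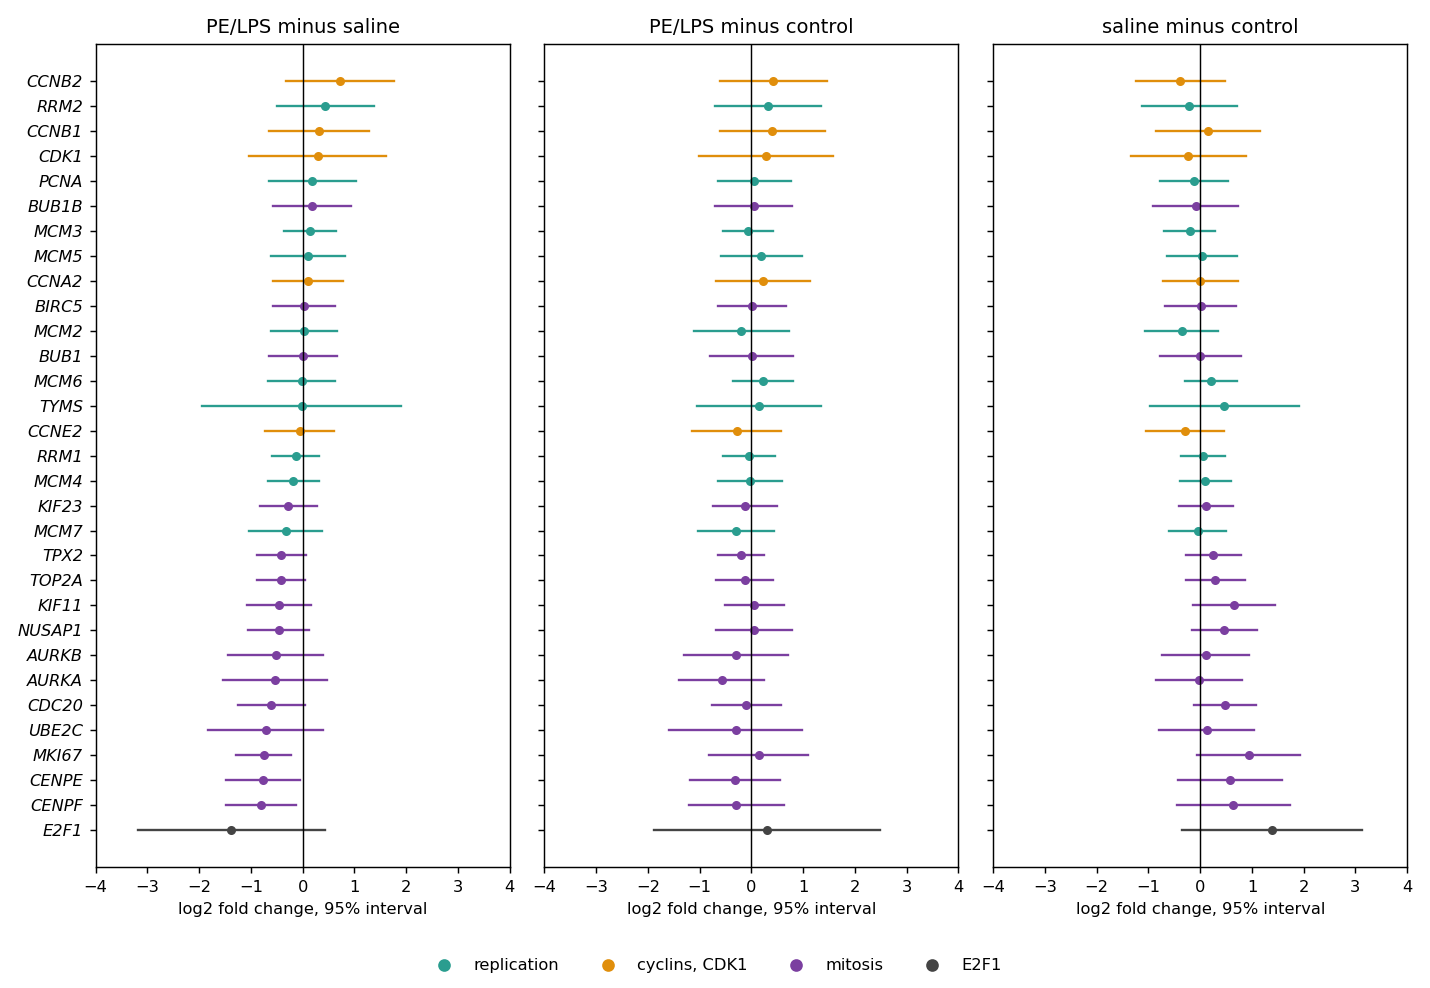
Log2 fold change with its 95% interval (x axis) of the 31 members tested within sheep (rows) for PE/LPS minus saline, PE/LPS minus control and saline minus control, coloured by role. For PE/LPS minus saline the intervals of MKI67, CENPF and CENPE end below 0, and in the comparisons with control all intervals include 0.

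The 2 LC and 2 RA control pieces gave the only comparison of the codes without a difference in exposure. Of 32 members tested 0 were called by edgeR (0% of all 18063 genes), by DESeq2 (0.282% of all genes) and by limma voom (0.00554% of all genes). At an unadjusted p under 0.05 in edgeR 1 member was higher in LC, against 1.65% of all genes, and 1 lower, against 2.06%, and DESeq2 and voom gave the same counts. The shares of all genes were 1.75% higher and 3.32% lower with DESeq2, and 1.10% higher and 1.85% lower with voom. The higher one was MKI67, with 13.2 and 23.4 CPM in the LC pieces and 10.1 and 3.75 CPM in the RA pieces (log2 fold change 1.40, SE 0.57, edgeR unadjusted p = 0.0387, adjusted p = 0.987). The log2 fold change of MKI67 was 0.87 without the piece of sheep 9 and 2.24 without that of sheep 7. The lower one was KIF20A, with 0 counts in both LC pieces and 12 and 15 counts in the RA pieces. Fits without 1 control piece leave 1 piece in an arm, so no counts of members are given for them. UBE2C was at 1.09 (SE 0.55), and at 0.52 without the piece of sheep 18, with MCM4 at 0.41 (SE 0.39) and RRM2 at 0.58 (SE 0.75). PCNA stood at -0.45 (SE 0.42), BIRC5 at -0.48 (SE 0.44), CCNB1 at -0.73 (SE 0.78), TOP2A at -0.26 (SE 0.47), MCM2 at -0.16 (SE 0.51) and CDK1 at -0.12 (SE 0.83). Without the piece of sheep 9 PCNA was at -0.073 and BIRC5 at -0.056, and without that of sheep 7 they were at -0.77 and -0.83.

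For MKI67 the LC pieces were thus the higher ones among controls and the lower ones in the exposed sheep. A fit over all 18 pieces tested whether PE/LPS minus saline differed from LC minus RA in controls (limma voom with the sheep as a random block). Of 33 members tested 0 were called (0% of all 20719 genes). At an unadjusted p under 0.05 there were 1 member lower, against 2.85% of all genes, and 1 higher, against 3.25%. MKI67 was the lower one, at -1.98 (SE 0.80, unadjusted p = 0.021, adjusted p = 0.729 in limma voom). It was at -1.39 without the control piece of sheep 9 and at -2.81 without that of sheep 7. KIF20A was the higher one (unadjusted p = 0.00413, adjusted p = 0.729 in limma voom), and its value rests on the 0 counts of the LC controls. Without 1 control piece this fit also has 1 piece in a code arm, so no counts of members are given for such fits.

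CENPF was at -1.68 (SE 0.85) in this fit, and at -0.25 without the control piece of sheep 9 or -3.35 without that of sheep 7, while UBE2C was at -1.69 (SE 1.01). CCNB2 was at 0.72 (SE 0.82) and PCNA at 0.57 (SE 0.67). CCNB1 was at 0.62 (SE 0.91), RRM2 at -0.39 (SE 0.82), TOP2A at -0.25 (SE 0.48), MCM2 at 0.098 (SE 0.78) and CDK1 at -0.067 (SE 1.08). With 1 control piece left out at a time CCNB1 ran from 0.092 to 1.41, CCNB2 from 0.14 to 1.34 and PCNA from 0.24 to 0.88.

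Other genes of the same pathways also gave 0 calls within sheep (edgeR, adjusted p under 0.05). Of 58 other mitosis genes 17 were positive and 41 negative, with a median of -0.18, and 1 was higher and 2 lower at an unadjusted p under 0.05, near the shares of all genes given above (2.51% and 3.25%). CENPN, a kinetochore protein, had the smallest p on the positive side, with 4.27 ± 1.79 CPM in PE/LPS against 2.18 ± 1.5 CPM in saline pieces (SD, n = 7 each; log2 fold change 1.14, SE 0.48). HMMR, a spindle and hyaluronan-binding protein, had the smallest p on the negative side, at 5.64 ± 1.54 against 10.7 ± 4.40 CPM (log2 fold change -0.85, SE 0.34), below saline in 6 of 7 sheep. Against control sheep KIFC1, a spindle kinesin, had the smallest p of this list, with 4.49 ± 0.94 CPM in PE/LPS against 7.55 ± 0.41 CPM in control pieces (SD, n = 7 and 4; log2 fold change -0.74, SE 0.29, edgeR unadjusted p = 0.0212). In that comparison 0 of the 58 genes were called, and 1 was lower at an unadjusted p under 0.05, against 0.573% of all genes.

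Of 35 other replication genes 19 were positive and 16 negative within sheep, with a median of 0.075. GMNN, or geminin, an inhibitor of replication licensing, was at 0.64 (SE 0.29) and DNMT1, the maintenance DNA methyltransferase, at -0.73 (SE 0.28). Of 24 genes of early cyclins, their kinases and the E2F family 11 were positive and 13 negative, with a median of -0.091. MYC, a transcription factor that promotes growth, was at 0.63 (SE 0.24) and E2F2, an activating E2F factor, at -1.16 (SE 0.42). E2F2 was also higher in saline than in control pieces, at 6.15 ± 2.35 against 2.77 ± 1.14 CPM (log2 fold change 1.14, SE 0.39, edgeR unadjusted p = 0.00958, adjusted p = 0.939).

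Of 23 cyclin-dependent kinase inhibitors and genes of cell cycle exit 15 were positive and 8 negative, with a median of 0.12. SESN1, a stress-induced p53 target, was at 97.2 ± 51.2 CPM in PE/LPS, 47.2 ± 11.2 CPM in saline and 71.5 ± 34 CPM in control pieces. It was higher in PE/LPS than in saline in 6 of 7 sheep (log2 fold change 0.91, SE 0.30, edgeR unadjusted p = 0.00988, adjusted p = 0.771). CDKN1C, an inhibitor of cyclin-dependent kinases, was at -0.59 (SE 0.28). Of 20 genes of DNA damage and recombination 9 were positive and 11 negative, with a median of -0.13. RAD54L, a motor of recombination repair, was lower in PE/LPS in 7 of 7 sheep, at 1.63 ± 1.06 against 3.41 ± 0.45 CPM (log2 fold change -1.33, SE 0.48, edgeR unadjusted p = 0.0155, adjusted p = 0.771).

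Marker genes of lung cells were compared within sheep as well, with 0 called (edgeR, adjusted p under 0.05). All 12 ciliated cell markers were negative (median -0.66), with summed levels of 153.3 to 512.7 CPM in PE/LPS, 319.1 to 640.2 CPM in saline and 201.9 to 656.6 CPM in control pieces, and 5 of the 12 were lower at an unadjusted p under 0.05, against 3.25% of all genes. Of 11 alveolar type 2 markers tested 10 were negative (median -0.61) and 2 were lower at that p, with summed levels of 4837 to 129200 CPM in PE/LPS, 22560 to 103600 CPM in saline and 25310 to 58300 CPM in control pieces. Against control pieces, all 11 were higher in saline (median 0.54). Of these, 5 were at an unadjusted p under 0.05 in edgeR, against 1.66% of all genes. In PE/LPS against control 7 were positive and 4 negative (median 0.15), so PE/LPS was not generally below control. For the 12 ciliated cell markers the medians were 0.26 in saline and -0.26 in PE/LPS against control. Among the control pieces all 12 were higher in LC than in RA (median 0.83). Of these, 2 were at an unadjusted p under 0.05 in edgeR, against 1.65% of all genes. Of 11 macrophage markers 8 were positive (median 0.27), as were 8 of 11 T cell markers (median 0.16), whose summed level was 464.9 to 636.6 CPM in PE/LPS, 317.4 to 507.1 CPM in saline and 384.6 to 621.0 CPM in control pieces. Each of these 2 lists had 1 marker higher at an unadjusted p under 0.05, against 2.51% of all genes.

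Of the 10 fibroblast and matrix markers 7 were negative (median -0.080) and 2 lower at an unadjusted p under 0.05, against 3.25% of all genes. COL3A1, a chain of fibrillar collagen, was lower in PE/LPS in 7 of 7 sheep, at 174.6 ± 73.8 CPM against 598.9 ± 534.9 CPM in saline and 273.6 ± 115.7 CPM in control pieces (SD; log2 fold change -1.51, SE 0.36, edgeR unadjusted p = 0.00121, adjusted p = 0.771). The summed level of this list was highest in the saline piece of sheep 14, at 6616 CPM against a saline median of 3408 CPM. COL3A1 was not refitted without that sheep. On the positive side of the fibroblast and matrix list DCN, or decorin, had the smallest p, at a log2 fold change of 0.14 (SE 0.27). Of 7 neutrophil markers tested 5 were positive (median 0.26). At an unadjusted p under 0.05 in edgeR 1 of them was higher, against 2.51% of all genes, and 0 were lower. S100A9 had the smallest p on their negative side, at -0.28 (SE 0.43). CXCR2, a chemokine receptor of neutrophils, was higher in PE/LPS in 6 of 7 sheep, at 11.1 ± 7.25 against 4.44 ± 3.06 CPM (log2 fold change 1.35, SE 0.34, edgeR unadjusted p = 0.00177, adjusted p = 0.771). Of 12 B and plasma cell markers 8 were negative (median -0.22), with summed levels of 704 to 2892 CPM in PE/LPS, 1247 to 2078 CPM in saline and 1090 to 2067 CPM in control pieces. Endothelial markers were positive for 5 and negative for 5, germinal centre markers for 4 and 5, multiciliated precursor markers for 3 and 5 and basal cell markers for 1 and 5. No marker was at 0 in all pieces, and the part of these cells in the lower values of MKI67, CENPF and CENPE in PE/LPS was not tested.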

How the data were processed

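Poly-A primed, template-switching, tagmented libraries were made from total RNA, per the labels. The authors deposited counts per gene and library. Tools in the submitters' processing notes include STAR 2.7.10b, edgeR 3.40.2, Subread 1.6.3 with featureCounts, Trimmomatic 0.39 and FastQC 0.11.9. The sources used here do not give the genome build, strand setting or treatment of molecular identifiers, so reads of near-identical or overlapping genes may be split or joined. Of 30186 rows 2 had no values. Members and lists were chosen with earlier results of these data known. Named genes were 7 fixed members and the 3 with the smallest p on each side of each comparison. From the other lists, some of the genes with the smallest p on a side were also named. The value of 1 gene that this rule names is not reported here. List genes outside the table were not analysed here, and promoter and protein sequences were not used here.

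Counts of 3 libraries were summed per piece and tested with edgeR 4.0.16 in R 4.3.3 (robust quasi-likelihood fits, TMM, filterByExpr at counts of 10 and totals of 15), Benjamini-Hochberg at 0.05. The interaction of exposure and code used limma 3.58.1, and DESeq2 1.42.0 was an alternative. Log2 CPM used a prior count of 2. The design text places both exposures in lobes of the same animals, so the sheep was kept as a block. Deviations from group means correlated above 0.1 in 4 of 7 pairs (range -0.23 to 0.30, mean 0.057), 2 PE/LPS pieces correlated best with their own sheep, and the fitted within-sheep correlation was -0.024. The code was tested on simulated data.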

Additional observations from a re-analysis of the deposited data

Results flagged for a closer look

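In 9 of 93 groups of pieces tested for an outlying piece, over the members tested, the highest or lowest piece lay apart from the others of its group by Dixon's ratio at the 95% level, where chance flags about 1 in 20 groups. In saline pieces CENPF in sheep 14 measured 144 CPM with the nearest piece at 50.9 CPM, and CENPE in the same piece 73.7 CPM with the nearest at 25.9 CPM. MCM3 in that piece was low, at 9.32 CPM with the nearest at 14.0 CPM. In the PE/LPS piece of the same sheep MCM3 was high, at 20.9 CPM with the nearest at 16.1 CPM. RRM2 in the saline piece of sheep 8 measured 4.20 CPM with the nearest at 2.15 CPM. MCM2 in the PE/LPS piece of sheep 15 measured 1.25 CPM with the nearest at 5.28 CPM.

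The control piece of sheep 9 was the highest of 4 for CCNB1 (4.94 CPM, nearest 2.24), CCNE2 (9.65 CPM, nearest 5.19) and BIRC5 (19.8 CPM, nearest 12). The cause of these values was not tested.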

How the results depend on the processing

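Over 42 settings 1343 values were recomputed. No setting called a member at an adjusted p under 0.05 in any comparison, 76 values changed sign, none of them of a called member, and 27 moved. All are log2 fold changes below, and the cause of each change was not tested. The mitosis median of PE/LPS minus saline was negative under every setting; it ran from -0.60 to -0.37. PLK1, FOXM1 and KIF20A had too few counts to be tested within sheep, and the controls are 4 pieces.

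Without the replicate block, PE/LPS minus saline called 0 members, where 1 of all 16944 genes was called. At an unadjusted p under 0.05, 5 members were lower, and the mitosis median was -0.44. Of all 16944 genes 434 were then lower and 764 higher at that p, against 550 and 426 with the block. The sheep numbers paired the pieces by the design text. In the interaction of exposure and code, edgeR with no replicate block put CDK1 at 0.58. Without the pieces whose titles carry further characters, PE/LPS minus saline put MCM2 at -0.18 and CDK1 at -0.25, with MKI67 at -0.56 (unadjusted p = 0.107 in edgeR). In the same setting PE/LPS minus control put RRM2 at -0.067 and CDK1 at -0.36, and saline minus control put PCNA at 0.11 and CDK1 at 0.057.

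On library totals alone, MCM2 was at -0.068 in PE/LPS minus saline and PCNA at 0.022 in saline minus control. In control LC minus RA, MCM2 was then at 0.11, CDK1 at 0.21 and the replication median at 0.22. With limma voom RRM2 was at -0.11, PCNA at -0.025 and CDK1 at -0.18 in PE/LPS minus control, and CDK1 at 0.16 in control LC minus RA.

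With library 1 alone RRM2 was at -0.24, PCNA at -0.016, CCNB1 at -0.12 and MCM2 at -0.11 in PE/LPS minus saline. PCNA was at -0.11, CCNB1 at -0.071 and CDK1 at -0.66 in PE/LPS minus control, CCNB1 at -0.11 in saline minus control and MCM2 at 0.045 in control LC minus RA. With library 2 alone MCM2 was at -0.32 and CDK1 at -0.53 in PE/LPS minus saline, and AURKA at 0.016, MCM2 at 0.50 and MKI67 at -0.058 in PE/LPS minus control. RRM2 was then at 0.44, MCM2 at 0.64 and CDK1 at 0.72 in saline minus control, and RRM2 at -0.75, CCNB1 at 0.70 and MCM2 at 0.18 in control LC minus RA. With library 3 alone RRM2 was at -0.18, TOP2A at 0.011 and TPX2 at 0.20 in PE/LPS minus control, and MCM4 at -0.22 and CDK1 at 0.31 in control LC minus RA.

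Against the LC control pieces alone MKI67 in PE/LPS was at -0.40, and against the RA control pieces alone RRM2 was at 0.099 and CCNB1 at -0.19 in saline. Without the saline piece of sheep 14 and the control piece of sheep 9, a choice made after seeing the data, CCNB2 was at 0.0019, PCNA at 0.25 and CDK1 at 0.17 in saline minus control.

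With 1 sheep or piece left out at a time, PE/LPS minus saline ran from -0.098 to 0.50 for PCNA, from -0.053 to 0.21 for MCM2, from -0.15 to 0.68 for CDK1 and from -0.90 to -0.63 for MKI67. PE/LPS minus control ran from -0.17 to 0.55 for CDK1, from -0.17 to 0.63 for MKI67, from -0.040 to 0.27 for PCNA and from -0.26 to 0.096 for TOP2A. Saline minus control ran from -0.020 to 0.59 for CCNB1, from -0.44 to 0.057 for CDK1 and from -0.27 to 0.11 for PCNA. Control LC minus RA ran from -1.28 to 0.085 for CCNB1, from -0.70 to 0.78 for CDK1, from -0.51 to 0.14 for MCM2, from -0.67 to 0.29 for TOP2A, from -0.30 to 0.32 for the members' median, from -0.37 to 0.48 for the mitosis median and from -0.045 to 0.22 for the replication median. These fits leave 1 control piece in an arm, which is assumed to vary like the others. The interaction ran from -0.65 to 0.79 for CDK1, from -0.24 to 0.39 for MCM2, from -0.74 to 0.27 for TOP2A and from -0.52 to 0.0032 for the members' median, the last leave-one-out fits being added after seeing the data.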
